A study of Mus musculus with 8 samples.

Results

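Gene expression in 2 spontaneously transformed lines of mouse peritoneal mast cells (PMCs), PMC-303 and PMC-306, was compared with that in 6 primary PMC cultures. These 8 cultures are all samples of the series, and each contributed 1 library of total RNA. The donor mice were wild-type and of mixed C57BL/6x129/Sv background, 3 primary cultures came from females and 3 from males, and all cells were left untreated. According to the labels, the lines emerged through ageing and neglect of cultures, and the study describes PMC-303 as independent of PMC-306. The medium of the lines held less serum (10% against 15% FCS) and less stem cell factor (SCF, 5 against 20 ng/ml) than that of the primary cultures, at 30 ng/ml of IL-3 in both. Medium, time in culture and transformation therefore differ between the same cultures and cannot be told apart. The study also reports chromosome changes in the lines. PMC-306, male by karyotype, had a heterozygous deletion on chromosome 4 that includes Cdkn2a. Most metaphases of PMC-303 had a trisomy of chromosome 8. The lines were treated as 2 replicates of a transformed line, so that a difference counts as shared only against the spread between them and between the 6 primary cultures. The labels number the primary cultures as biological replicates but do not state that each came from a separate animal. The p-values therefore measure the spread between cultures.

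Mast cells are long-lived immune cells that depend on SCF, the ligand of the receptor tyrosine kinase KIT, and in culture also on IL-3. Connective tissue mast cells such as PMCs store tryptase, chymases, carboxypeptidase and heparin in secretory granules, which are related to lysosomes, and release them when antigen crosslinks IgE on the receptor FcεRI. Primary PMCs stop dividing after some weeks. Escape from such an arrest usually involves the INK4/ARF locus, whose products restrain D-type cyclins with their kinases and the degradation of p53.

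The labelled cell type was checked first with 8 defining mast cell genes. All 8 were detected in every culture, and their summed level was 36909 and 33758 CPM in PMC-303 and PMC-306, against 40014 to 60094 CPM in the primary cultures. CPM are counts scaled to a common library size by the TMM method (trimmed mean of M values). Carboxypeptidase A3 (Cpa3), the β chain of FcεRI (Ms4a2), the histamine-forming enzyme Hdc, the transcription factor Gata2 and the granule proteoglycan Srgn were not called different. The remaining 3 were lower. Kit had 1946 and 2055 CPM in PMC-303 and PMC-306 against 3359 to 3932 CPM in the primary cultures. Fcer1a, which encodes the IgE-binding chain of FcεRI, had 2479.9 and 1323 CPM against 3789 to 5154 CPM. Il1rl1, the gene of the IL-33 receptor ST2, had 4444 and 4312 CPM against 6307 to 8199 CPM, but its call was lost when either line was left out (limma adjusted p = 0.0531 without PMC-303 and 0.0645 without PMC-306). The groups do not overlap for any of these 3 genes. Over all tested genes, 20.1% had both lines below all primary cultures. The fitted fall was 2.57-fold for Fcer1a and 1.83-fold for Kit.

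None of the 11 macrophage, 7 B cell, 8 T and NK cell, 10 neutrophil and eosinophil, 10 fibroblast and mesothelial and 10 erythroid and megakaryocyte genes was called different, and 7 of them had enough counts to be tested. Macrophage genes summed to 2.43 and 427 CPM in PMC-303 and PMC-306, of which Adgre1 made up 426 CPM, and to between 5.78 and 64.6 CPM in the primary cultures, while C1qb, Mertk, Marco, Timd4 and Vsig4 were at 0 in every library. Summed neutrophil and eosinophil markers stayed at or below 0.246 CPM in every culture and summed fibroblast and mesothelial markers at or below 2.51 CPM. B cell markers, mainly Ighm, summed to 21.4 and 6.53 CPM in the lines and 0.682 to 12.6 CPM in the primary cultures, T and NK cell markers to at most 4.09 CPM in any culture. Erythroid and megakaryocyte markers, mainly the integrin Itga2b, summed to 1312 and 1123 CPM in the lines and 1412 to 1966 CPM in the primary cultures. The part of these cells in the results was not tested. In bulk RNA, fewer cells of a type and less RNA per cell cannot be told apart. Library totals lay between 15.9e6 and 24.2e6 counts. Where no read was counted, up to 3 counts remain possible, equal to 0.123 and 0.147 CPM in PMC-303 and PMC-306 against 0.132 to 0.187 CPM in the primary cultures, for counting error only. Mitochondrially encoded genes took 2.32% and 2.42% of the counts in the lines and between 4.02% and 6.97% in the primary cultures. The part of this difference in the results below was not tested.

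Of 14525 genes with sufficient counts, limma called 2660 higher (18.3%) and 2254 lower (15.5%) in the lines at an adjusted p under 0.05. The median log2 fold of all tested genes was -0.01. Because a call can rest mainly on 1 line, a stricter count also asked for a difference of at least 2-fold from the primary mean in each line, which 880 genes met as higher (6.06%) and 639 as lower (4.4%). Both lines lay above all primary cultures for 22.9% and below all of them for 20.1% of the tested genes. Among the 8750 tested genes that averaged 10 CPM or more, 22.4% were called higher and 17.6% lower, and these shares are the closer background for lists of abundant genes. The balance of calls depended on scaling. It was 54.1% higher with TMM, 67.2% with total counts (3406 higher, 1665 lower) and 70.7% with the deposited TPM (2374 higher, 984 lower), and these 2 scalings shifted all genes by a median log2 value of 0.11 and 0.14. Of the 880 genes, 83 belong to the S phase or G2/M list and 62 are histone genes. As the cell cycle genes moved with the group (41 of 43 S phase and 53 of 54 G2/M genes higher), their part in the other rises was not tested.

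Functions were described with 52 lists of genes. The plot of called shares shows the 45 that are not marker lists, each with at least 10 tested members. Counts of calls in the lists below stand against 15.5% lower and 18.3% higher over all tested genes.

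**Figure D1:**
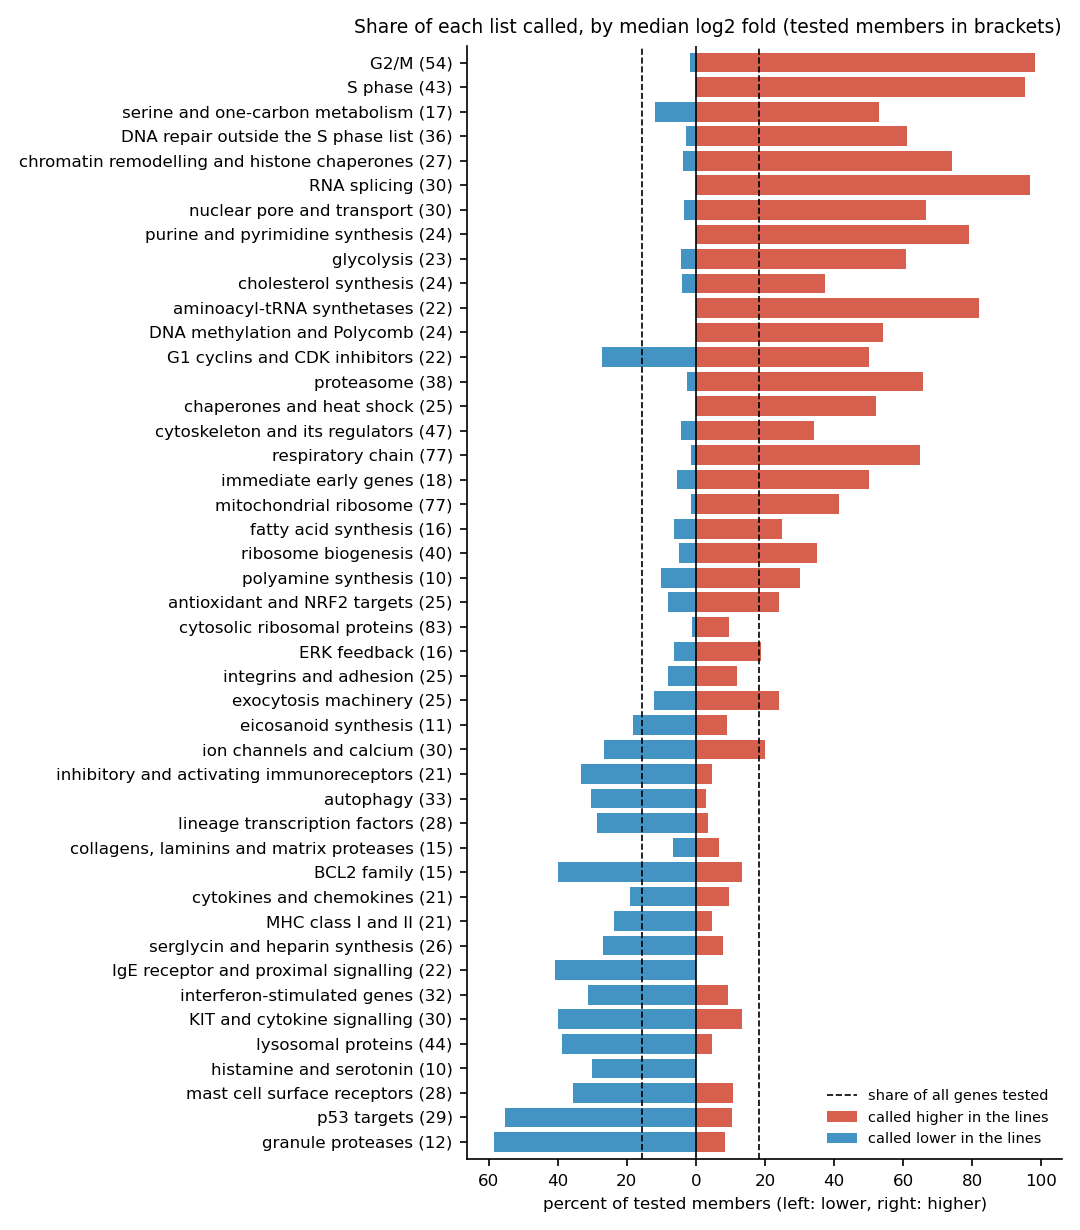
Percent of the tested members of 45 gene lists that limma called higher (red, to the right) or lower (blue, to the left) in both PMC lines against 6 primary cultures, sorted by the median log2 fold of the list, with the number of tested members in brackets. Dashed lines mark the shares of all tested genes, 18.3% higher and 15.5% lower. RNA splicing (96.7% higher) and aminoacyl-tRNA synthetases (81.8%) have high shares of higher genes, and granule proteases (58.3% lower) and p53 targets (55.2%) stand at the bottom.

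Genes lower in both lines included the protease Mcpt4 and the ribonuclease Rnase6 among the 5 with the largest shared fall, together with Plcb4, App and Pdzk1ip1. Plcb4, a phospholipase C that acts downstream of G protein-coupled receptors (chromosome 2, 135500926 to 135856870 in GRCm39), had 3 counts in PMC-303 and 1 count in PMC-306. In the primary cultures it had between 16.8 and 54.3 CPM with a median of 23.4 CPM. The amyloid precursor protein gene App (chromosome 16, 84746573 to 84971126) had 0 counts in either line. Its level varied widely among the primary cultures, from 1.85 to 50.98 CPM around a mean of 25.9 ± 19.5 CPM (SD, n = 6), and with 3 counts set in place of 0 either line was at least 176-fold lower than that mean. Gfra2, a coreceptor for the growth factor neurturin, had 0 counts in PMC-303 and 1 in PMC-306. Its primary mean rests on male culture 3 with 57.2 CPM, as the other cultures had at most 5.72 CPM.

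The other genes with large falls had varied roles. Arhgef5 and Arhgap5, an activator and an inhibitor of small GTPases, had 0.206 and 0.864 CPM in PMC-303 and 0 and 0.147 CPM in PMC-306, against 6.34 to 26.8 CPM and 11.7 to 39.3 CPM in the primary cultures. Arhgef5, with 5 and 0 counts in the lines, passed the filter on low counts through the primary cultures alone. Its call is thus given as a description. Slc9a7, an organellar sodium/proton exchanger, had 0.741 and 0.0491 CPM against 11.1 to 33.2 CPM. Pdzk1ip1, a small membrane protein, had 0.206 and 0 CPM against 8.33 to 45.2 CPM. It too passed the filter through the primary cultures alone, so that its call is a description. The secreted protein gene C1qtnf6 had 1 and 0 counts in PMC-303 and PMC-306 against 3.49 to 16.3 CPM in primary cultures. Prrg4, a membrane protein with a Gla domain, had 0.6997 and 0.0491 CPM against 8.86 to 29.3 CPM. Lgals3bp, a secreted galectin-3 ligand, fell from 30.1 to 109.8 CPM in the primary cultures to 2.22 and 3.39 CPM.

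Immune genes were also among the 25 largest shared falls. Klra2, a C-type lectin receptor of the Ly49 family, had 0.576 and 4.67 CPM in PMC-303 and PMC-306 against 24.7 to 274 CPM in the primary cultures, and its call was lost without PMC-303 (limma adjusted p = 0.0630). The interferon-inducible GTPase gene Ifi47 had 0.823 and 1.52 CPM against 14.2 to 41.5 CPM. Xlr4b and Xlr4c, lymphoid-regulated genes on the X chromosome whose close copies could have shared reads in the counting, had 0.547 and 0.328 CPM in PMC-303 and were both at 0 in PMC-306. In the primary cultures Xlr4b had between 6.47 and 35.1 CPM and Xlr4c between 2.86 and 26.1 CPM. Xlr4c passed the filter on low counts through the primary cultures alone, so that its call is likewise a description. A further 10 of the 25 genes are Mcpt4, Mcpt2, Tpsb2 and Ctsg among the proteases, Cdkn2a, Rnase6, Tmem233 and Vill, and 2 gamma protocadherins. For Vill, female culture 3 stood out with 98.8 CPM, as the other cultures had at most 29.3 CPM. In all, 67 of the genes called lower had at most 3 counts in each line and a primary mean of at least 1 CPM, of which 4 (Plcb4, App, Gfra2 and C1qtnf6) had a mean of at least 10 CPM. These 67 genes passed the filter on low counts through the primary cultures alone, so that their calls are no independent evidence and the values are given as a description.

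**Figure D2:**
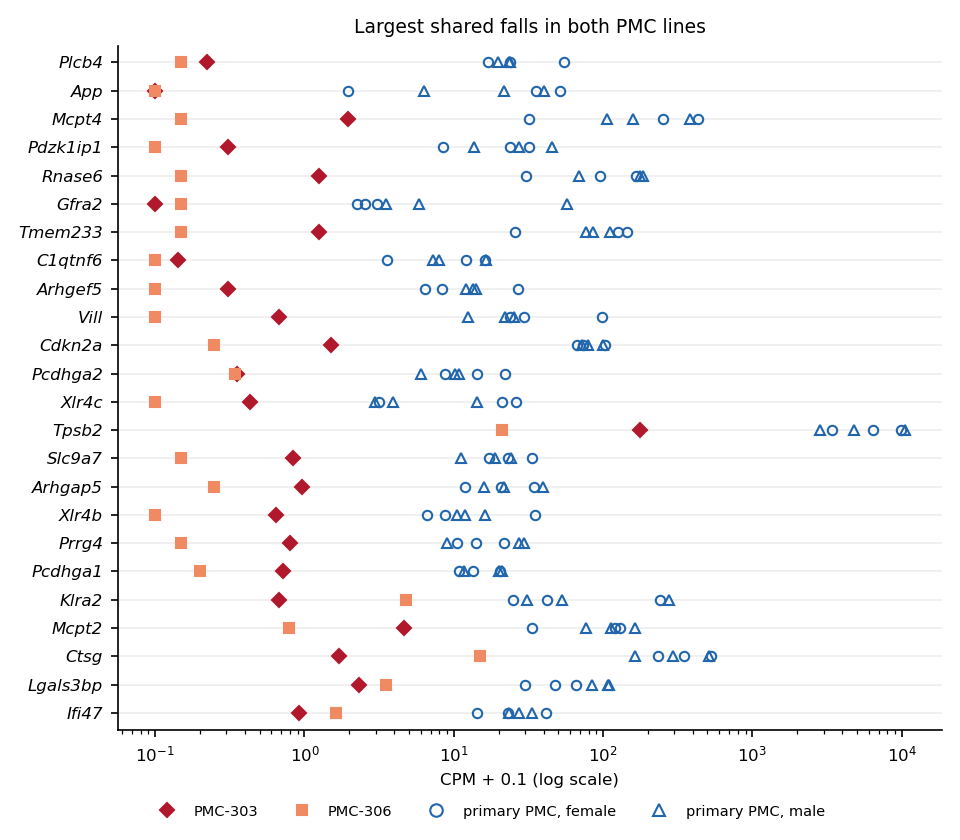
CPM + 0.1 on a log scale (x axis) of 24 of the 25 genes with the largest shared fall (y axis, from the largest down), 1 symbol per culture. Both lines (filled symbols) lie below all primary cultures (open symbols, female circles and male triangles) for every gene plotted, while the primary cultures span wide ranges for App and Gfra2.

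Clustered protocadherins are cell adhesion molecules best known from neurons, in which each gamma protocadherin gene joins its own first exon to constant exons shared by the whole cluster. Pcdhga1 and Pcdhga2 met the rule for the largest falls, and the rest of the family was looked at after their values were seen. All 22 gamma protocadherin genes of the table had enough counts to be tested. Limma called 21 lower and 0 higher, with 19 at least 2-fold lower in each line. Over all tested genes 15.5% were called lower. Members such as Pcdhgb1, with 4.56 and 0 counts in PMC-303 and PMC-306, passed the filter on low counts through the primary cultures alone. Calls of such members are no independent evidence and are given as a description. Pcdhga1 had 0.617 and 0.0982 CPM in PMC-303 and PMC-306 against 10.7 to 21.04 CPM in the primary cultures. Pcdhga2 had 0.255 and 0.242 CPM against 5.95 to 21.8 CPM. The exception was Pcdhgc4, with 2.38 CPM in PMC-303, within the primary range of 1.25 to 4.203 CPM, and 0.344 CPM in PMC-306. Because of the shared exons the split of reads among the genes is uncertain, but their sum is not affected by it. Their sum was 24.5 and 6.33 CPM in PMC-303 and PMC-306 against 87.0 to 141 CPM in the primary cultures, with a mean of 123 ± 21.3 CPM (SD, n = 6). The cluster lies on chromosome 18, where 9.40% of the 351 tested genes were called and at least 2-fold lower in each line, against 4.4% of all tested genes. Of those 33 genes, 20 are protocadherins, and without protocadherins the share was 3.98%.

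**Figure D3:**
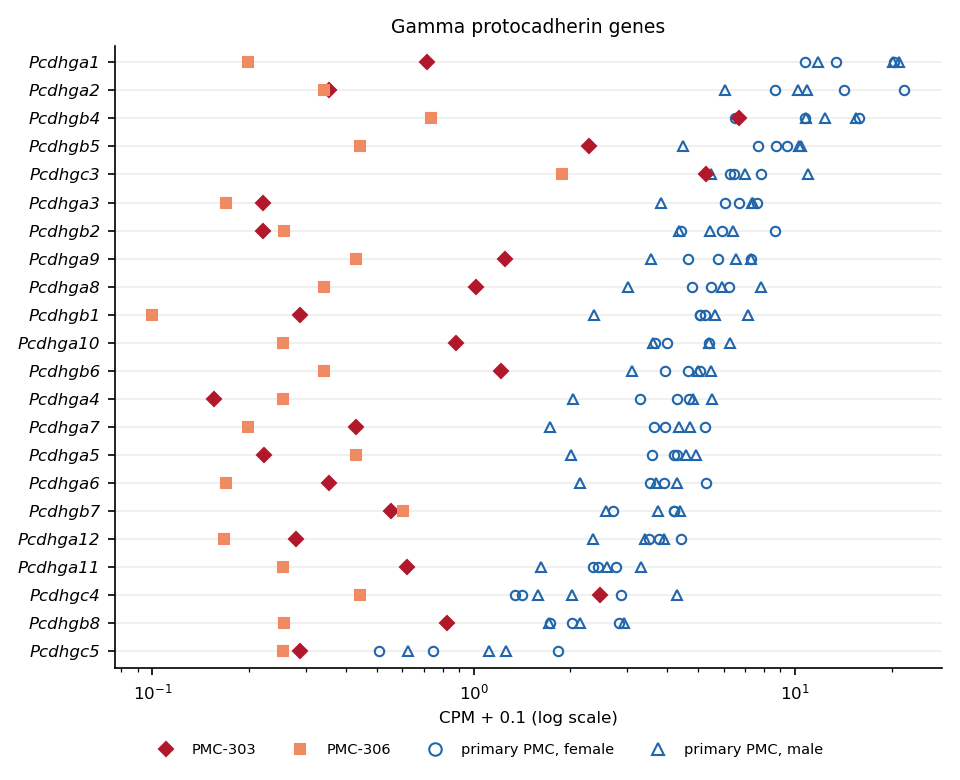
CPM + 0.1 on a log scale (x axis) of the 22 gamma protocadherin genes (y axis, by primary mean), 1 symbol per culture. PMC-306 lies below all primary cultures for each gene, and PMC-303 overlaps with them for Pcdhgb4 and Pcdhgc4.

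The mast cell program fell unevenly. Of 12 tested granule proteases, 7 were called lower and all 7 were at least 2-fold lower in each line, with a median log2 fold of -2.60 over the list. Cathepsin G (Ctsg), a granule serine protease, had 1.61 and 14.9 CPM in PMC-303 and PMC-306 against 163 to 528 CPM in the primary cultures. Among these proteases Cma2, a chymase relative, was called higher, with 30.05 and 16.3 CPM against 6.17 to 13.1 CPM, a call lost without PMC-303 (limma adjusted p = 0.154). Because the genes of this family resemble each other, the counting could have split their reads. Enzymes that build heparin and other proteoglycans gave smaller folds. Of 26 tested genes 7 were lower (26.9%) and 2 higher (7.69%), against 15.5% and 18.3% of all tested genes. The fall was 1.62-fold for B4galt7, which extends the linker to the sugar chain, and 1.48-fold for the sulfate transporter Slc26a2. Papss1, which makes the sulfate donor, rose from 38.1 to 48.6 CPM in the primary cultures to 75.8 and 107 CPM. Of 10 tested genes of histamine and serotonin handling, 3 were lower (30%, against 15.5% of all tested genes). Slc18a2, the vesicular monoamine transporter, had 934 and 454 CPM against 1117 to 1606 CPM, although its call was lost without PMC-306 (limma adjusted p = 0.0557). Of 11 tested genes of eicosanoid synthesis 2 were lower (18.2%) and 1 higher (9.09%), against 15.5% and 18.3% of all tested genes. The median log2 fold of this list was -0.03. Hpgds, the hematopoietic prostaglandin D synthase of mast cells, had 214 and 279 CPM against 328 to 476 CPM (lost without PMC-303, limma adjusted p = 0.127).

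Genes of FcεRI and its first signalling steps gave 9 lower and 0 higher calls among 22 tested (40.9% lower, against 15.5% of all tested genes). The kinase Syk, which binds the phosphorylated receptor, had 123 and 127 CPM in PMC-303 and PMC-306 against 183 to 203 CPM in the primary cultures (limma adjusted p = 0.000266). Orai1, the pore of the store-operated calcium channel, had 11.2 and 9.43 CPM against 16.5 to 27.2 CPM. These genes fell 1.55-fold and 2.03-fold without overlap of the groups, but they were named for their falls. Of 28 tested surface receptors and other surface molecules, 10 were lower (35.7%) and 3 higher (10.7%). Anpep, which encodes the peptidase CD13, had 69.6 and 75.97 CPM against a primary median of 458 CPM, a 6.42-fold fall (limma adjusted p = 8.04e-05). The tetraspanin Cd9 had 105 and 30.9 CPM against 225 to 385 CPM, and the ATP receptor P2rx4 218 and 246 CPM against 417 to 484 CPM. The lipoprotein receptor Tlr2 had 1 count in each line against 0.316 to 2.64 CPM in the primary cultures. As Tlr2 passed the filter on low counts through the primary cultures alone, its call is given as a description. Higher was Cysltr1, a leukotriene receptor, with 0.823 and 0.835 CPM where no primary culture exceeded 0.158 CPM. Cysltr1 passed the filter through the lines alone, so that its call too is given as a description.

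Paired and inhibitory immunoreceptors were lower in 7 and higher in 1 of 21 tested cases (33.3% and 4.76%, against 15.5% and 18.3% of all tested genes). Cd33, an inhibitory receptor for sialic acids, had 79.5 and 83.97 CPM in PMC-303 and PMC-306 against 159 to 229.7 CPM. Pilrb1 and Pilrb2, activating receptors that share sequence, had 32.7 and 6.61 CPM in PMC-303 and 7.89 and 3.503 CPM in PMC-306, below their primary ranges of 41.4 to 117 CPM and 12.4 to 83.5 CPM. Both calls were lost without PMC-306 (limma adjusted p = 0.121 and 0.0512). The activating IgG receptor Fcgr3 was higher, with 235 and 231 CPM against 133 to 162 CPM. Of 28 tested transcription factors of the lineage, 8 were lower (28.6%) and 1 higher (3.57%). Lmo2, a partner of GATA factors, fell 1.76-fold, to 26.96 and 34.4 CPM from a primary mean of 54.1 ± 6.39 CPM (SD, n = 6). Maf had 1 count in PMC-303 but 4.67 CPM in PMC-306 against 5.56 to 16.4 CPM, and its call was lost without PMC-303 (limma adjusted p = 0.136), female culture 1 (0.0528) or male culture 1 (0.0526). The rise was that of Hlf, a factor of blood stem cells, from at most 0.766 CPM to 3.09 and 9.04 CPM.

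Lysosomal genes leaned the same way as granule genes, with 17 of 44 tested members lower (38.6%), 2 higher and a median log2 fold of -0.38. Gm2a, a cofactor of ganglioside breakdown, had 67.5 and 383 CPM in PMC-303 and PMC-306 against 749 to 1849 CPM in the primary cultures. Cln3, a lysosomal membrane protein, had 17.3 and 22.7 CPM against 44.2 to 58.1 CPM (limma adjusted p = 0.000276). Idua, which degrades heparan and dermatan sulfate, fell 1.81-fold. The aspartic protease cathepsin D (Ctsd) had 1310 and 2449 CPM against 3038 to 4849 CPM, and its call was lost without PMC-303 (limma adjusted p = 0.0965). In contrast, Ctsc, which activates granule serine proteases, rose to 564 and 992 CPM. Its primary cultures had between 118 and 378 CPM, female culture 3 being the highest and the next at 158 CPM. Lamp1 was not called, with 177 and 238 CPM against 207 to 285 CPM. Of 33 tested autophagy genes 10 were lower (30.3%) and 1 higher (3.03%), against 15.5% and 18.3% of all tested genes. The falls included the initiation factors Atg14, with 7.903 and 7.86 CPM against 11.4 to 12.996 CPM, and Ulk2, with 59.6 and 60.5 CPM against 82.05 to 87.7 CPM. Of 25 tested genes of the exocytosis machinery 3 were lower and 6 higher, close to the background shares. Rab37, a GTPase of secretory granules, had 139 and 130.4 CPM against 254 to 312 CPM, whereas the vesicle protein Syt9 rose from at most 1.54 CPM to 36.3 and 22.1 CPM.

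Receptors for the growth factors of the medium were lower. Of 30 tested genes of KIT and cytokine signalling 12 were lower (40%) and 4 higher (13.3%), against 15.5% and 18.3% of all tested genes. The β chains of the IL-3 receptor fell. Csf2rb2 went to 854 and 656 CPM from 1910.1 to 2728 CPM and Csf2rb to 2295 and 1961 CPM from 3558 to 4373 CPM. These near-identical genes could have shared reads. They transmit the signal of IL-3. The part of the medium in the falls of these receptors was not tested here. The study also grew PMC-306 with the serum and SCF of the primary cultures. It reports less KIT protein on the surface then, while mRNA of Cdkn2a and of proteases such as Mcpt2 and Mcpt4 was unaltered. Il3ra, the specific α chain, had 21.7 and 16.99 CPM against 21.7 to 38.8 CPM, and its call was lost without either line and without 4 of the primary cultures (limma adjusted p between 0.0606 and 0.221). Higher were the adaptor Shc1, with 133 and 118 CPM against 74.7 to 98.2 CPM (lost without PMC-303, limma adjusted p = 0.0625), and the survival kinase Pim2, with 21.3 and 27.4 CPM against 6.85 to 19.5 CPM. The limma adjusted p of Pim2 was 0.049995, and it was between 0.0542 and 0.223 when either line or any of 5 primary cultures was left out.

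Immediate early genes, which growth factors switch on within minutes, gave 9 higher and 1 lower calls among 18 tested, with 8 not called. The median log2 fold of the list was 0.32, with a range of 0.18 to 1.21 over the alternatives. Egr2 had 4.65 and 49.3 CPM in PMC-303 and PMC-306, and at most 0.746 CPM in the primary cultures. Fosb had 13.01 and 41.9 CPM against 0.367 to 2.43 CPM, and Fos 9.96 and 36.9 CPM against 0.157 to 2.89 CPM. Every one of these values was larger in PMC-306 than in PMC-303. Without PMC-306 the call of Fos was lost (limma adjusted p = 0.0776). Myc was not called, with 45.1 and 66.2 CPM against 42.97 to 52.3 CPM. Among 16 tested feedback genes of the ERK pathway 3 were higher and 1 lower, near the background. Etv4, a transcription factor induced by ERK, had 10.04 and 11.3 CPM against 2.401 to 5.05 CPM, and the inhibitor Spred1 fell to 721 and 595 CPM from 881 to 1247 CPM (lost without PMC-306, limma adjusted p = 0.0576). Of 30 tested ion channels and calcium handlers, 8 were lower (26.7%), among them Orai1 and P2rx4, and 6 higher (20%). Over all tested genes 15.5% were lower and 18.3% higher.

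Targets of p53 gave more lower than higher calls. Of 29 tested genes 16 were lower (55.2%) and 3 higher (10.3%), against 15.5% and 18.3% of all tested genes. The list's median log2 fold was -0.77, with a range of -0.80 to -0.52 under the alternatives. Zmat3, an RNA-binding protein gene, had 24.5 and 19.7 CPM in PMC-303 and PMC-306 against 68.2 to 84.1 CPM in the primary cultures, a 3.52-fold fall (limma adjusted p = 5.42e-05). Trp53inp1, which acts in stress responses, had 116 and 133 CPM against 272 to 397 CPM. The nucleotide excision repair gene Xpc had 25.8 and 19.99 CPM against 41.5 to 55.8 CPM. None of these 3 genes overlaps between the groups, but they were named for the size of their falls. Of all tested genes, 20.1% had both lines below every primary culture. Eda2r, a receptor of the TNF family, had 3.46 and 0 CPM in PMC-303 and PMC-306 against 4.09 to 15.7 CPM (lost without PMC-306, limma adjusted p = 0.102). The 3 higher members were Ckap2 and Gtse1, both known for roles in mitosis, and Apaf1, the core of the apoptosome. Ckap2 had 59.6 and 42.3 CPM against 3.62 to 7.92 CPM. The call of Gtse1 was lost without PMC-303 (limma adjusted p = 0.0905) and that of Apaf1 without PMC-306 (0.0628).

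Of 15 tested genes of the BCL2 family, which controls mitochondrial apoptosis, 6 were lower (40%), 2 higher (13.3%) and 7 not called. Over all tested genes 15.5% were lower and 18.3% higher. The survival factors Bcl2, with 131 and 72.8 CPM against 254 to 351 CPM, and Bcl2l1, with 43.8 and 40.02 CPM against 56.2 to 78.5 CPM, fell 3.09-fold and 1.55-fold. The death-promoting Bax had 53.9 and 46.8 CPM against 82.9 to 106 CPM and Bbc3 17.7 and 15.7 CPM against 24.7 to 35.6 CPM, and both are p53 targets as well. The death-promoting Bak1 and Bik were higher. Bak1 rose 1.35-fold, from a primary mean of 59.7 ± 2.35 CPM (SD, n = 6), and Bik had 2.02 and 2.46 CPM against 0.311 to 0.844 CPM.

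Regulators of G1 split in 2 directions, with 11 higher and 6 lower among 22 tested. The D-type cyclins Ccnd1 and Ccnd2, which act at the start of the cycle, were lower where S phase and G2/M genes were higher. Ccnd2 had 940.4 and 528 CPM in PMC-303 and PMC-306 against 2437 to 3388 CPM in the primary cultures, the highest in female culture 2, where the next had 2560 CPM. Ccnd1 had 205 and 156 CPM against 370.5 to 1096 CPM. Ccnd3, looked up after the values of the other two were seen, was also lower, with 188.8 and 85.25 CPM against 260.5 to 347.5 CPM. Their kinase Cdk6 had 257 and 49.01 CPM against 354 to 511 CPM. The INK4 family did not move together. Where Cdkn2a had 1.399 and 0.147 CPM against 67.02 to 103 CPM, the related inhibitors Cdkn2c (41.3 and 18.6 CPM against 1.101 to 4.69 CPM) and Cdkn2d (31.7 and 29.8 CPM against 3.43 to 9.33 CPM) rose. The factors E2f2 and E2f7, an activator and a repressor of cell cycle genes, had 19.6 and 16.5 CPM in PMC-303 and 15.7 and 19.7 CPM in PMC-306, above primary ranges of 0.787 to 2.15 CPM and 0.787 to 2.802 CPM. E2f1 was not called, with 39.6 and 19.2 CPM against 20.8 to 26.9 CPM. The median log2 fold of this list, 0.47, turned to -0.05 when only genes averaging 10 CPM or more were tested.

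**Figure D4:**
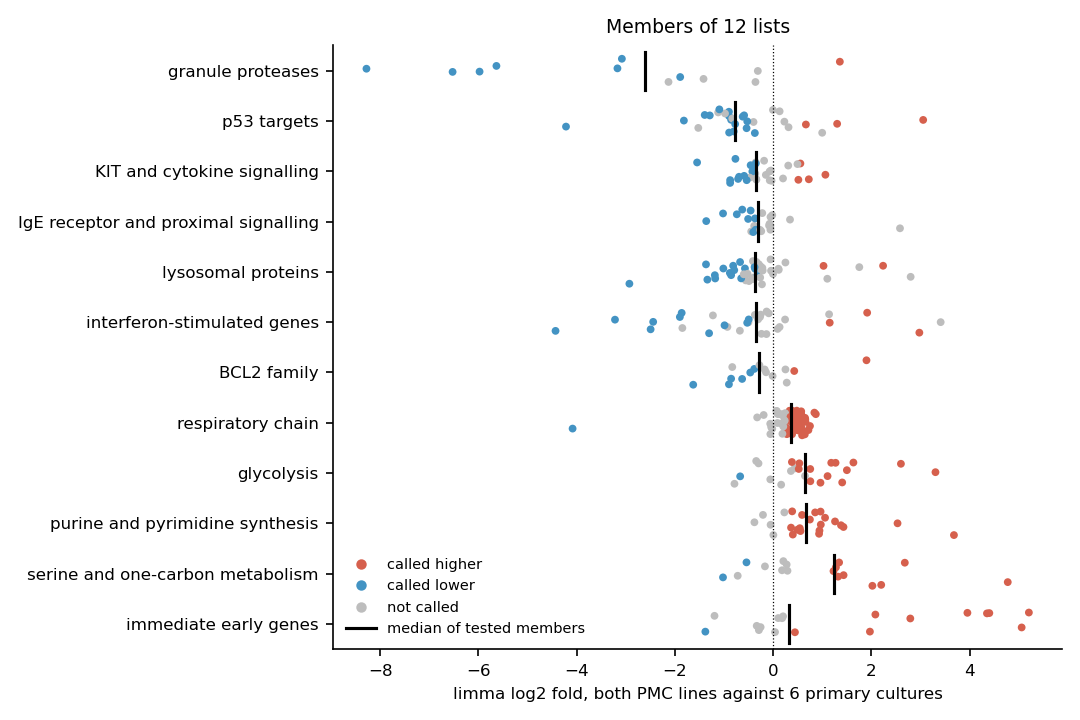
Limma log2 folds of both PMC lines against 6 primary cultures (x axis) for the tested members of 12 lists (y axis), 1 point per gene, with points spread vertically for visibility. Called genes are coloured, and black bars mark medians, from -2.60 for granule proteases to 1.23 for serine and one-carbon metabolism. Over the alternatives these 2 medians ranged from -3.34 to -1.80 and from 0.28 to 1.38.

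Interferon-stimulated genes were lower in 10 (31.25%) and higher in 3 (9.375%) of 32 tested cases, against 15.5% and 18.3% of all tested genes. Of the falls, 8 were at least 2-fold in each line. Oasl1, a regulator of interferon production, had 1 count in PMC-303 and 2 counts in PMC-306, against 1.79 to 4.39 CPM in the primary cultures. The exonuclease gene Isg20 had 0.329 and 0.246 CPM against 0.933 to 3.04 CPM. Oasl1 and Isg20 passed the filter on low counts through the primary cultures alone, so that their calls are given as a description. The RNA sensor Ifih1 had 0.535 and 0.982 CPM against 1.58 to 8.28 CPM (lost without PMC-303, limma adjusted p = 0.108). Against this direction, Ifit2, which blocks translation of foreign RNA, had 0.823 and 3.83 CPM and at most 0.369 CPM in the primary cultures. As Ifit2 passed the filter through the lines alone, its call is likewise a description. For antigen presentation by MHC molecules, 5 of 21 tested genes were lower (23.8%) and 1 higher, near the background. B2m, the light chain of MHC class I, had 243 and 281 CPM against 454 to 1482 CPM, and its call was lost without PMC-303 (limma adjusted p = 0.0673). The nonclassical H2-T23 had 213 and 239 CPM against 330.1 to 449 CPM. Among 21 tested cytokines and chemokines 4 were lower (19.0%) and 2 higher, also near the background. The monocyte attractant Ccl2 had 186 and 234 CPM against 364 to 657 CPM. The angiogenic factor Vegfa rose to 42.9 and 41.1 CPM from 14.5 to 25.1 CPM.

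Adhesion and matrix lists stayed at or below the background shares. Of 25 tested integrins and adhesion molecules 2 were lower and 3 higher, and of 15 tested collagens, laminins and matrix proteases 1 was lower and 1 higher. The integrin Itgav fell to 66.7 and 73.8 CPM from 97.8 to 125 CPM. Its partner Itgb3 had 1.28 and 3.54 CPM against 6.17 to 36.7 CPM (lost without PMC-303, limma adjusted p = 0.0659). The matrix gene Fbn1, fibrillin 1, had 30.4 and 15.5 CPM against 35.9 to 85.02 CPM (lost without PMC-306, limma adjusted p = 0.0982). Tgfbi, a secreted adhesion protein, had 0.864 and 6.73 CPM and at most 0.105 CPM in any primary culture. Its call is given as a description, as it passed the filter on low counts through the lines alone.

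Genes higher in both lines began with transcripts that primary PMCs hardly had. Pou3f2 (chromosome 4, 22482780 to 22488366 in GRCm39), a transcription factor known from neurons and melanocytes, had 31.2 and 39.2 CPM in PMC-303 and PMC-306 and at most 0.187 CPM, or 3 counts, in each primary culture. Pax3 (chromosome 1, 78077904 to 78173771), which specifies neural crest and muscle cells, had 2.39 and 18.02 CPM against at most 0.124 CPM. Flrt2, a membrane protein of cell adhesion and axon guidance, had 4.16 and 17.4 CPM against at most 0.132 CPM. In each of these 3 genes every primary culture had 3 counts or fewer. Of all genes called higher, 11 had such low counts and a mean of at least 1 CPM in the lines, and the same 3 had a mean of at least 10 CPM. These 11 genes passed the filter on low counts through the lines alone, so that their calls are no independent evidence and the values are given as a description. The chemokine receptor Ccr8 had 12.9 and 38.6 CPM against at most 0.211 CPM. These genes have too few counts outside the lines to be tested with 1 line left out, as do Cysltr1, Ifit2 and Tgfbi. Ccr8, Cysltr1 and Ifit2 thus also passed the filter through the lines alone, and their calls are no independent evidence either.

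Other rises came from detectable levels. Irag1, a substrate of cGMP-dependent kinase at the endoplasmic reticulum, had 311 and 63.9 CPM in PMC-303 and PMC-306 against 0.835 to 13.3 CPM in the primary cultures, the highest in female culture 3. Pkia, an inhibitor of protein kinase A, had 23.2 and 29.1 CPM against 0.4598 to 1.95 CPM. Arap2, which regulates small GTPases, had 27.7 and 28.96 CPM against 0.562 to 3.43 CPM. Levels in the lines were close to each other for Pkia and Arap2. Igfbp4, a binding protein of insulin-like growth factors, had 5.52 and 29.02 CPM against 0.0439 to 0.869 CPM. The glycosyltransferase B3galnt1 had 18.3 and 16.9 CPM against 0.124 to 2.64 CPM and lost its call without PMC-303 (limma adjusted p = 0.0771) or PMC-306 (0.0730). Of the 20 genes with the largest shared rise, 7 are known from the cell cycle although they are not on the S phase and G2/M lists (Ccna2, Pclaf, Depdc1a, Gpsm2, Troap, Pif1 and Lmnb1). Ccna2, which encodes cyclin A2, had 286 and 216 CPM against 6.56 to 24.1 CPM. Gpsm2, which orients the mitotic spindle, had 47.4 and 52.3 CPM against 1.47 to 4.43 CPM. The nuclear lamina gene Lmnb1 had 97.5 and 89.1 CPM against 3.04 to 8.94 CPM.

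**Figure D5:**
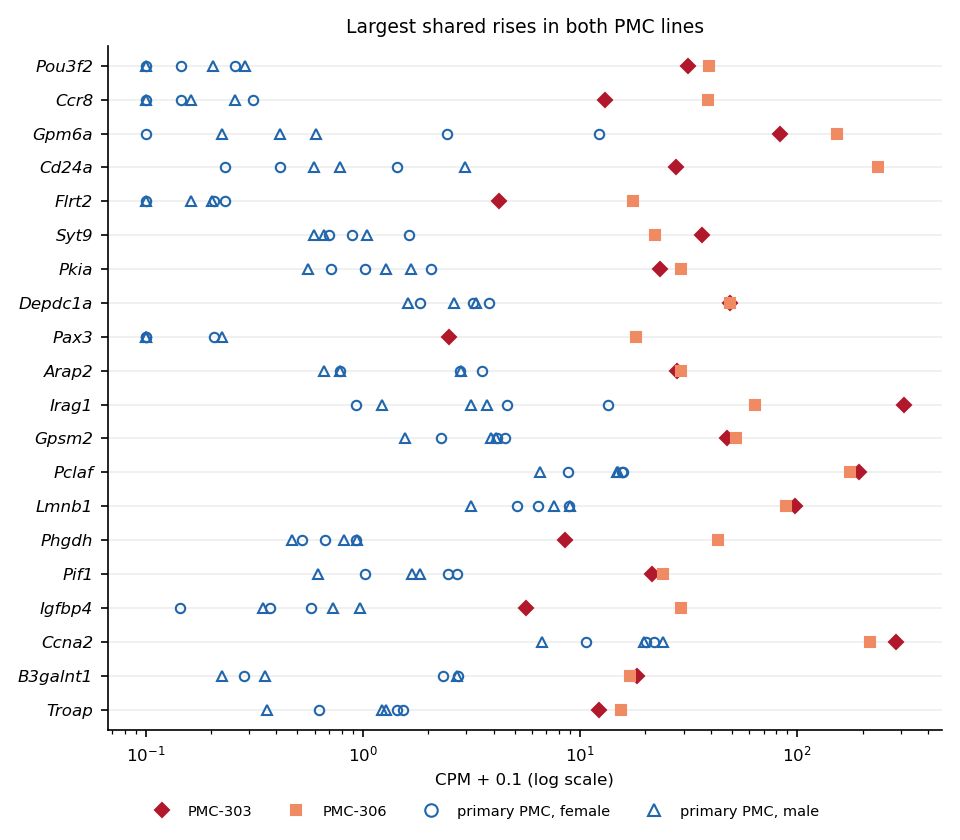
CPM + 0.1 on a log scale (x axis) of the 20 genes with the largest shared rise (y axis, from the largest down), 1 symbol per culture. Both lines (filled symbols) lie above all primary cultures (open symbols, female circles and male triangles) for every gene plotted, and most primary cultures had under 0.3 CPM of Pou3f2, Ccr8, Flrt2 and Pax3.

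Metabolic lists held more higher than lower genes. Of 17 tested genes of serine and one-carbon metabolism, 9 were higher, 8 of them at least 2-fold in each line, and 2 were lower. The list's median log2 fold, 1.23, was 0.28 among genes averaging 10 CPM or more, 0.70 without PMC-303 and 0.74 without PMC-306. Phgdh (chromosome 3, 98220484 to 98255047 in GRCm39), the first enzyme of serine synthesis, had 8.41 and 43.01 CPM in PMC-303 and PMC-306 against 0.373 to 0.839 CPM in the primary cultures (limma adjusted p = 0.00048). Mthfd1l, a mitochondrial enzyme of the formate route, had 33.1 and 41.6 CPM against 6.78 to 9.54 CPM. The serine transporter Slc1a4 had 8.31 and 22.1 CPM against 2.04 to 4.72 CPM. The isoenzyme Mthfd2l moved the other way, to 4.69 and 5.16 CPM from 9.05 to 11.1 CPM. Purine and pyrimidine synthesis gave 19 higher and 0 lower calls among 24 tested. The largest rises there were those of enzymes of deoxynucleotide supply, Tk1 with 53.6 and 50.7 CPM against 1.99 to 5.82 CPM and Dut with 66.1 and 50.5 CPM against 7.97 to 12.2 CPM. Prps1, which makes the ribose donor for all nucleotides, rose 2.697-fold.

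Glycolysis gave 14 higher and 1 lower of 23 tested genes, and its median log2 fold was 0.65. Slc16a1, the lactate and pyruvate transporter MCT1, had 40.997 and 37.1 CPM in PMC-303 and PMC-306 against 2.98 to 4.75 CPM in the primary cultures, a 9.87-fold rise (limma adjusted p = 5.42e-05). The enzymes Eno1, with 529 and 414 CPM against 98.1 to 185 CPM, and Tpi1, with 376 and 313 CPM against 109.6 to 129 CPM, rose 3.102-fold and 2.83-fold. Nuclear genes of the respiratory chain rose by smaller amounts in larger number, 50 of 77 tested with a median log2 fold of 0.36. Ndufv2, a subunit of complex I, had 62.8 and 67.1 CPM against 33.8 to 38.5 CPM, and Atp5g3, of the ATP synthase, had 108 and 105 CPM against 60.6 to 65.9 CPM. The 1 lower gene was Cox6b2, an isoform known from testis, with 0 counts in both lines against 0.527 to 3.996 CPM in the primary cultures. Its call is given as a description, because it passed the filter on low counts through the primary cultures alone. Mitochondrially encoded mRNAs, were looked at after the values were seen. Of 13 tested 0 were higher and 3 lower, and their sum was 14261 and 14480 CPM in PMC-303 and PMC-306 against 16572 to 27136 CPM in the primary cultures. Both mitochondrial rRNAs were lower, with a sum of 8796 and 7181 CPM against 22810 to 44238 CPM, but levels of rRNA depend on rRNA depletion, which was not measured here.

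Most lipid synthesis genes were not called. Of 24 tested cholesterol genes 9 were higher and 1 lower, with a median log2 fold of 0.64 that fell to 0.21 when PMC-306 was left out. Fdps, an enzyme of the isoprenoid part of the pathway, had 179.96 and 311 CPM in PMC-303 and PMC-306 against 51.98 to 125 CPM, and Hmgcs1, which forms the first committed metabolite, had 227 and 636 CPM against 104 to 212 CPM. Without PMC-306 both calls were lost (limma adjusted p = 0.0549 and 0.129). Of 16 tested fatty acid genes 4 were higher and 1 lower, near the background. The elongase Elovl7 fell, to 33.5 and 11.8 CPM from 77.8 to 92.05 CPM. Polyamine synthesis gave 3 higher (30%) and 1 lower (10%) of 10. Among 25 tested antioxidant genes 6 were higher (24%) and 2 lower (8%). The shares of all tested genes were 18.3% higher and 15.5% lower. The thioredoxin gene Txn1 rose to 165 and 134 CPM from 56.95 to 68.4 CPM, while the ferritin light chain Ftl1 fell to 3519 and 3049.8 CPM from 6340.2 to 9829.6 CPM.

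Genes of RNA and protein production were higher in part. Of 30 tested splicing factors 29 were higher, 3 of them at least 2-fold in each line, with a median log2 fold of 0.74. Snrpd1, a core protein of the spliceosome, had 61.2 and 58.1 CPM in PMC-303 and PMC-306 against 23.7 to 27.4 CPM, and Hnrnpa1 had 416 and 461 CPM against 171 to 214 CPM. Aminoacyl-tRNA synthetases gave 18 higher and 0 lower of 22, among them Vars, with 125 and 114 CPM against 57.1 to 65.2 CPM. Proteasome subunits were higher in 25 and lower in 1 of 38 tested cases, chaperones in 13 and 0 of 25, and mitochondrial ribosomal proteins in 32 and 1 of 77. The lower proteasome gene was Psmb10, a subunit of the immunoproteasome, with 14.1 and 17.6 CPM against 19.7 to 27.3 CPM (lost without PMC-303, limma adjusted p = 0.176). Genes of the cytosolic ribosome gave few calls. Of 83 tested cytosolic ribosomal protein genes 8 were higher (9.64%) and 1 lower, where 22.4% of all genes of at least 10 CPM were higher. Of 40 ribosome biogenesis genes 14 were higher and 2 lower. The nucleolar protein gene Nop58 rose 1.84-fold, to 118 and 116 CPM from 58.4 to 71.8 CPM, whereas the Rplp1 gene of the ribosomal stalk fell from 652 to 843 CPM to 517 and 535 CPM (lost without PMC-303, limma adjusted p = 0.0612).

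Nuclear genes rose as well. Nuclear pore and transport genes gave 20 higher and 1 lower of 30 tested. The pore membrane protein Nup210 had 39.7 and 45.4 CPM in PMC-303 and PMC-306 against 3.83 to 7.87 CPM, and the importin Kpna2 had 319 and 284 CPM against 83.5 to 100.5 CPM. Chromatin remodellers and histone chaperones gave 20 higher and 1 lower of 27, led by Hmgb3, with 31.8 and 33.7 CPM against 2.04 to 5.24 CPM. Asf1b, a chaperone that carries new histones, had 99.2 and 60.3 CPM against 6.61 to 13.1 CPM. DNA methylation and Polycomb genes gave 13 higher and 0 lower of 24. The Polycomb partner Phf19 had 22.9 and 23.1 CPM against 1.89 to 4.29 CPM, and the maintenance methyltransferase Dnmt1 rose 2.99-fold. Of 36 tested DNA repair genes outside the S phase list, 22 were higher and 1 lower. Bard1, the partner of BRCA1, had 36.8 and 26.9 CPM against 1.78 to 4.104 CPM, and Fancd2, a central protein of crosslink repair, 38.8 and 28.5 CPM against 2.05 to 4.598 CPM. In all genes named in this paragraph both lines were above all primary cultures, but the genes were named for their rises. The same held for 22.9% of all tested genes. Genes of the cytoskeleton and its regulators gave 16 higher and 2 lower of 47, the rises including the tubulin Tuba1b and the microtubule destabiliser Stmn1, at 4.86-fold and 7.37-fold.

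Promoters were then searched for motifs that cell cycle and lineage factors bind, in a RefSeq table that gives 300 bases per gene on build GRCm38.p6, from 250 before to 50 after the start of the transcript. A promoter was present for 80.3% of the 11561 tested protein-coding genes with distinct symbols, 80.9% of those called higher and 80.7% of those called lower. The motif of E2F factors, TTTCCCGC or TTTGGCGC on either strand, was held by 6.56% of promoters of higher genes (95% Wilson interval 5.56 to 7.72), 1.62% of lower genes (1.10 to 2.38) and 3.22% of all. Without the S phase and G2/M lists the share of higher genes was 6.25%. The cell cycle homology region TTTGAA was held by 17.5% of higher, 10.4% of lower and 12.3% of all promoters, and the NF-Y motif CCAAT by 46.1%, 35.8% and 39.6%. The E-box CACGTG was held by 9.09% of higher and 12.4% of lower promoters against 10.3% of all. The GATA motif AGATAA was held by 6.95%, 7.38% and 6.26%. A match is a description of letters and shows no binding. As examples of the E2F motif outside the S phase and G2/M lists, the promoters of 3 genes described above are shown, with the motif in capitals.
Phf19: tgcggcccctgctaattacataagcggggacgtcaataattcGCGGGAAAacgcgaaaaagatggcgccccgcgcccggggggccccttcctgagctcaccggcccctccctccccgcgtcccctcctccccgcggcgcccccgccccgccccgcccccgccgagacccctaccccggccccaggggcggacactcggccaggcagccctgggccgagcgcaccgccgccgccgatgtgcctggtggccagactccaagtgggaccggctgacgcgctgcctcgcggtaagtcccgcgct
Bard1: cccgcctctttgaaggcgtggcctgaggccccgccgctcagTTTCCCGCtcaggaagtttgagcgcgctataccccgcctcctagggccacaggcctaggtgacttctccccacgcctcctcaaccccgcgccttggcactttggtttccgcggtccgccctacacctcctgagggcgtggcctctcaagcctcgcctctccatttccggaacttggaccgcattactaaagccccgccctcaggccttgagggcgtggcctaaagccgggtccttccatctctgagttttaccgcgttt
E2f7: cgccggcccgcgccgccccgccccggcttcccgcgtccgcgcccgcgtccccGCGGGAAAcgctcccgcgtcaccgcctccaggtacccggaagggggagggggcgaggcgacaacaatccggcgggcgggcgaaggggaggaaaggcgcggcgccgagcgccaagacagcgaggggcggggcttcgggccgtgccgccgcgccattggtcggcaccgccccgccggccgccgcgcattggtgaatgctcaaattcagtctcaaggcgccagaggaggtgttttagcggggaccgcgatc
On GRCm38.p6 they are chr2:34913927-34914226 (minus strand), chr1:71102923-71103222 (minus strand) and chr10:110745189-110745488 (plus strand). Counted from the start of the transcript, the motif begins at position -208 in Phf19, -209 in Bard1 and -198 in E2f7, and it reads along the gene in Bard1 and on the opposite strand in the other two.

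Along the genome, the share of tested genes called and at least 2-fold higher in each line ranged from 2.85% on chromosome 18 to 12.95% on chromosome 13, against 6.06% overall. Of the 79 such genes on chromosome 13, 46 are histone genes, and without histone genes the share there was 5.91%. The share at least 2-fold lower ranged from 2.79% on chromosome 13 to the 9.40% on chromosome 18. The median log2 fold was highest on chromosome 8, at 0.11, and was -0.05 on chromosome 4. The part of the trisomy in PMC-303 and of the deletion in PMC-306 was not tested. Protein-coding genes were more often called higher (2488) than lower (1913) among 11568 tested, whereas 969 tested long noncoding RNAs gave 79 higher and 125 lower calls. Of the genes at least 2-fold lower in each line, 92.6% were on none of the lists, against 78.3% of those at least 2-fold higher, so that the lists describe a small part of the shared falls.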

How the data were processed

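RNA sequencing of 2 PMC lines and 6 primary PMC cultures was analysed, with groups taken from the labels. According to the study and the submitters' processing notes, total RNA libraries (TruSeq Stranded, NextSeq500) were trimmed with Trim Galore 0.6.7, aligned with STAR 2.7.9a to GRCm39 and quantified with Salmon 1.5.2 in nf-core/rnaseq 3.5. The authors deposited estimated counts and TPM per gene and transcript, as tables in which a spreadsheet had rewritten part of the values, so that 3.37% of the gene count cells (14912) were restored, 381 of them with 2 possible readings settled by the sum of their transcripts. Because of this the values were treated as deposited estimates of another kind and no count model was fitted. Genes expressed at 10 counts of the median library in at least 2 libraries, with a total of at least 15, were tested. CPM were scaled with TMM, 0.1 was added, and log2 values were compared with limma 3.58.1 in R 4.3.3 with a variance trend, so that folds understate the change of low genes. An adjusted p (Benjamini-Hochberg, over 14525 genes) under 0.05 was a call. An exact permutation test of 2 against 6 cultures cannot go below p = 0.0714 (two-sided).

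The genes named are the 25 with the largest fall and the 20 with the largest rise shared by both lines, with a mean of at least 10 CPM in the higher group and leaving out cell cycle, histone and predicted genes and pseudogenes, and up to 4 called members per list and direction. Myc, E2f1 and Lamp1 were named as uncalled list members. The comparison, lists and named genes were chosen with earlier results of these data known. The procedure was tested on simulated data. Alternatives changed the offset, scaling, filter, unit, weights and libraries. Coordinates are from GENCODE M39 on GRCm39, where 98.9% of the deposited genes were found. Values of some genes are not reported here.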

Additional observations from a re-analysis of the deposited data

Results flagged for a closer look

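Among the 6 primary cultures, 19 of 263 named genes had 1 culture far from the others by Dixon's rule, whose gap divided by the range exceeds 0.625 for 6 samples. Chance alone gives about 1 in 20 genes, or 13.2 of these. The lines were not examined this way, as there are 2 of them. Female culture 3 was the highest for Ctsc (378 CPM, next 158 CPM), Cysltr1 (0.158 CPM, next 0.0524 CPM), Ext1 (14.9 CPM, next 8.92 CPM), Gpm6a (12.1 CPM, next 2.34 CPM), Irag1 (13.3 CPM, next 4.5 CPM), Vill (98.8 CPM, next 29.3 CPM) and Xlr4b (35.1 CPM, next 16 CPM). Female culture 3 was the lowest for Dtymk (12.8 CPM, next 15.8 CPM). Female culture 2 was the highest for Ccnd2 (3388 CPM, next 2560.3 CPM), Cct6a (194 CPM, next 162 CPM), Plcb4 (54.3 CPM, next 23.7 CPM) and Psmd12 (49.6 CPM, next 41 CPM). Female culture 2 was the lowest for Ptpn6 (95.5 CPM, next 121 CPM). Male culture 3 was the highest for Atg9b (0.577 CPM, next 0.276 CPM), Gfra2 (57.2 CPM, next 5.72 CPM), Hdc (18.1 CPM, next 10.7 CPM) and Ulk2 (87.7 CPM, next 83.8 CPM). Male culture 3 was the lowest for Azin1 (169.8 CPM, next 189 CPM). Female culture 1 was the highest for Fdft1 (46.7 CPM, next 21.2 CPM). These values were not left out of any comparison.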

How the results depend on the processing

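Counts of calls were recomputed under 19 alternatives. With an offset of 1 CPM 400 genes were at least 2-fold lower in each line, and with only genes of at least 10 CPM 389 were at least 2-fold higher and 214 lower. The deposited TPM gave 984 lower genes. Leaving out genes with a rewritten cell (10319 genes tested) gave 1624 higher and 1460 lower genes. Fewer primary cultures gave fewer calls, 1326 higher, 832 lower and 352 at least 2-fold lower with the females, and 1241 lower with the males. With 1 library left out, between 1949 and 2565 genes were higher and between 1597 and 2091 lower, and between 853 and 905 were at least 2-fold higher and between 578 and 985 lower. The lone remaining line is then assumed to vary like the primary cultures. The median log2 fold of a list turned its sign with 1 line left out for cytosolic ribosomal proteins (range -0.048 to 0.29), polyamine synthesis (-0.015 to 0.41), lineage transcription factors (-0.34 to 0.035), cytokines (-0.79 to 0.057) and ion channels (-0.28 to 0.083). It also turned for lineage transcription factors (0.059), matrix genes (0.15) and ion channels (0.46) without rewritten genes, for matrix genes (0.050) and ion channels (0.063) with TPM, for ion channels with total counts (0.054) and with the males (0.013), and for G1 regulators with genes of at least 10 CPM (-0.048). Medians near 0, within 1 SD of the spread between primary cultures, also changed sign for exocytosis (-0.17 to 0.21 over all alternatives), eicosanoid synthesis (-0.45 to 0.12), integrins (-0.043 to 0.66) and ERK feedback (-0.20 to 0.27). With 1 line left out, the log2 folds of E2f1 (-0.32 to 0.72), Hdc (-0.21 to 2.25) and Myc (-0.074 to 0.48), none of which was called, changed sign. The causes were not tested. Of 258 named calls, 86 ended when 1 library was left out, 60 of them only without a line. No paired analysis was possible because the labels match no primary culture to a line. Depth limits genes near 3 counts.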
